A study of Mus musculus with 51 samples.

Results

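The subject is 9 olfactory receptor (OR) genes of mouse chromosome 2, *Olfr1183*, *Olfr1184*, *Olfr1195*, *Olfr1199*, *Olfr1202*, *Olfr1206*, *Olfr1209*, *Olfr1218* and *Olfr1220*, out of 1117 ORs counted in each library. They were selected on their reads after exposure to MTMT ((methylthio)methanethiol, a sulfur-containing odorant of male mouse urine), so their values in the MTMT groups are given as a description and without a test. The data are pS6-IP-Seq libraries from whole olfactory mucosa of C57BL/6J mice about 3 weeks old, littermates of mixed sex that were exposed for 1 hr to 10 μL of stimulus or of diluent. There were 51 libraries, 30 in 10 odor groups and 21 in 7 control groups, each of 3 libraries. Odor groups received 100 μM MTMT, 10 mM MTMT or 100 mM CPD (cyclopentadecanone, a musk), all dissolved in ethanol, or 100% (*E*)-β-farnesene, 1% 2,5-DMP, 77% DHB, 1% β-caryophyllene, or SBT at 0.01%, 1% or 100%. One set of 3 control libraries served 100 μM MTMT, (*E*)-β-farnesene and 2,5-DMP, and another set of 3 served 1% and 100% SBT. Controls received water or ethanol, but the labels do not name which of them the controls shared by 100 μM MTMT and the 2 odorants that were not in ethanol received, so the part of the diluent in that comparison was not tested.

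Each mature olfactory sensory neuron (OSN) expresses a single OR gene, a G protein-coupled receptor that sets which odorants the cell responds to. When an OSN fires, its ribosomal protein S6 becomes phosphorylated, and immunoprecipitation with an antibody against phosphorylated S6 (pS6-IP) retrieves the ribosomes of active cells together with their mRNA. The transcript of an OR whose OSNs were active therefore makes up a larger share of the OR reads. In libraries from bulk tissue, fewer OSNs of a kind and less captured RNA per OSN cannot be told apart. The tables hold OR genes alone, so markers of other cell types were not checked.

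The 9 genes lie within 652 kb of chromosome 2 (GRCm38, chr2:88454867-89106835), 4 on the plus strand and 5 on the minus strand, and 20 other ORs of the tables lie between them. Gaps between neighbouring members ranged from 14.4 to 192 kb. The 5 members *Olfr1183*, *Olfr1195*, *Olfr1199*, *Olfr1206* and *Olfr1209* carry a MOR230 name among their RefSeq synonyms, as do 9 of the 29 ORs of the stretch. *Olfr1184* carries MOR225-3, *Olfr1202* MOR232-7 and *Olfr1218* MOR233-12. Coding sequences were 921 to 966 bp long, on a single coding exon in each gene except *Olfr1183*, whose coding sequence spans 2 exons.

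To show how close the 9 receptors are to each other, a stretch of 60 coding bases is given for each, read 5′ to 3′ from GRCm38 at coding positions of GENCODE M21. It covers the codons of the aspartate-arginine-tyrosine motif at the inner end of the third transmembrane helix, a hallmark of ORs. *Olfr1206* is printed in lower case, and capitals in the other 8 mark bases that differ from it at the same place of the protein alignment.
Olfr1206 (chr2:88864937-88864996, plus strand): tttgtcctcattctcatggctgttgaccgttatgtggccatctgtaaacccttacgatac
Olfr1199 (chr2:88756284-88756343, minus strand): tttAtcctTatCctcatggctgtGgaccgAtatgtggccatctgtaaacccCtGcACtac
Olfr1209 (chr2:88910002-88910061, minus strand): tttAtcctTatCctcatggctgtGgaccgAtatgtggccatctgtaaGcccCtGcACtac
Olfr1195 (chr2:88683341-88683400, minus strand): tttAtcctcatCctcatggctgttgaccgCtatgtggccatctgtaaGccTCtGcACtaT
Olfr1183 (chr2:88461669-88461728, plus strand): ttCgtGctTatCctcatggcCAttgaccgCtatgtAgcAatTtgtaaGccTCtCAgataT
Olfr1202 (chr2:88817503-88817562, plus strand): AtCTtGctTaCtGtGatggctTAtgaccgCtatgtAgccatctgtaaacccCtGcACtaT
Olfr1220 (chr2:89097533-89097592, minus strand): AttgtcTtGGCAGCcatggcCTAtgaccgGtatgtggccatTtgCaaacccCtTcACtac
Olfr1184 (chr2:88487064-88487123, plus strand): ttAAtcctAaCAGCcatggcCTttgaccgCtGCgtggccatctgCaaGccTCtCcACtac
Olfr1218 (chr2:89055032-89055091, minus strand): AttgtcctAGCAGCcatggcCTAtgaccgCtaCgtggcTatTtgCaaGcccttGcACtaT
Members with a MOR230 name differed from *Olfr1206* at 9 (*Olfr1199*) to 16 (*Olfr1183*) of the 60 bases, and the other 4 members at 17 to 20. All members but *Olfr1184* encode the aspartate-arginine-tyrosine triplet here, and in *Olfr1184* the third residue differs.

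Over whole proteins, 2 members shared 46.2% to 92.9% of aligned residues (median 56.4% over 36 pairs). Pairs of MOR230 members shared 63.5% to 92.9% (median 71.4%, 10 pairs), with *Olfr1199* and *Olfr1209* the closest pair and *Olfr1195* at 87.1% to *Olfr1199*. *Olfr1218* and *Olfr1220* were 76.2% identical. The median identity of the members to the 20 other ORs of the stretch was 53.9%, and to ORs outside the stretch 38.2%. Closest relatives were often genes that were not chosen: *Olfr1204* shared 95.5% of residues with *Olfr1202*, *Olfr1201* and *Olfr1205* each 92.8% with *Olfr1206*, and *Olfr1216* 90.7% with *Olfr1218*. For 3 of the 9 (*Olfr1195*, *Olfr1199* and *Olfr1209*) the closest OR was another member. *Olfr1295*, the OR that the study followed for MTMT, was 41.7% to 49.8% identical to the members.

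**Figure D1:**
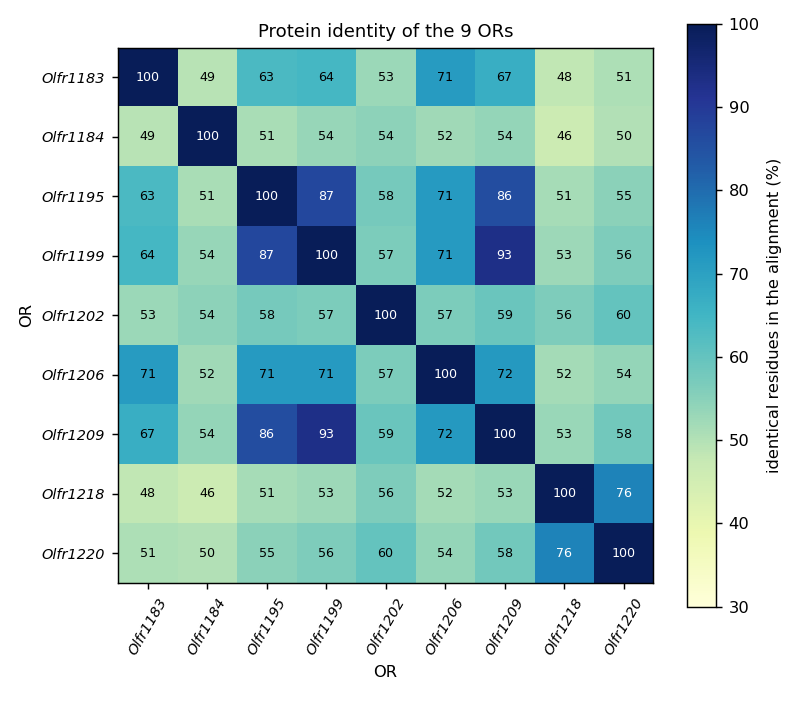
Identical residues (%, colour and number) in pairwise global alignments of the 9 proteins, in gene order on both axes. The 3 proteins Olfr1195, Olfr1199 and Olfr1209 form the closest group, and Olfr1218 and Olfr1220 the next pair outside MOR230.

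Similar genes can exchange reads in counting, so exon stretches of 50 bases shared with another Olfr gene were counted. They made up 12.7% of the stretches of *Olfr1202*, most of them in common with *Olfr1204*, 7.61% of those of *Olfr1206*, mostly in common with *Olfr1201*, and 4.38% of those of *Olfr1218*, mostly in common with *Olfr1216*. In the other 6 members the shared part was 1.06% (*Olfr1184*) to 2.87% (*Olfr1195*). How reads of the shared stretches were divided cannot be seen in the tables, so values of *Olfr1202* and *Olfr1206* are the least certain.

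Across the 51 libraries 27301 to 160001 reads fell on ORs (median 93870), and the 9 members together had 91 to 1870 reads per library. Single values are therefore small counts, and 3 of 459 values of a member in a library were 0. These were *Olfr1195* and *Olfr1199* in β-caryophyllene replicate 2, where 0 of 99952 OR reads allow a share of up to 0.00300%, and *Olfr1199* in 1% SBT replicate 2, where 0 of 66366 allow up to 0.00452%. Intervals given for single libraries are 95% Wilson intervals and, like the limits for 0, cover counting error only.

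Before the members are described, 2 libraries need naming because other ORs in them went against their labels. The library labelled CPD replicate 2 had 630 reads of *Olfr1295* among 145910 OR reads (0.432%), while the other CPD libraries had 0.0858% and 0.101%, and the 3 libraries after 10 mM MTMT had 0.0876%, 0.424% and 0.491%. Its share of *Olfr235*, a receptor that the study followed for CPD, was 0.0432%, against 1.04% and 0.426% in the other CPD libraries. *Olfr1437*, the other receptor followed for CPD, did not go against that label, since its share there was 0.103%, against 0.721% and 0.0880% in the other CPD libraries and 0.0359% to 0.0443% in their controls. The library labelled 10 mM MTMT replicate 1 showed the reverse, with 0.0876% *Olfr1295*, 0.903% *Olfr235* and 0.511% *Olfr1437*. Controls of 10 mM MTMT had 0.0311% to 0.0949% *Olfr235*. Neither library was moved to another group. Summed shares, fold changes and counts of members that rest on them are given with and without them, and why these libraries differ was not tested. The library labelled 10 mM MTMT replicate 3 stood apart in another way, since *Olfr541* took 9.79% and *Olfr1437* 6.29% of its OR reads, against 0.0983% to 0.275% for *Olfr541* in the 21 controls. Among the controls of CPD, replicate 1 had 0.497% *Olfr235*.

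Together the 9 members took 0.603%, 0.420% and 0.453% of OR reads after 100 μM MTMT, against 0.283%, 0.367% and 0.304% in the control mice. After 10 mM MTMT the shares were 0.296% in the library labelled replicate 1, 1.21% in replicate 2 and 0.713% in replicate 3, with 0.345%, 0.307% and 0.380% in the controls. At 100 μM every odor library was above every control library, and at 10 mM replicates 2 and 3 were, while the library labelled replicate 1 lay below all 3 controls. The mean was 0.492 ± 0.0975% (SD, n = 3) at 100 μM and 0.740 ± 0.457% (SD, n = 3) at 10 mM, or 0.961% without the library labelled 10 mM MTMT replicate 1. Both doses were measured in separate experiments with their own controls, so they are set side by side and not compared.

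The 3 CPD libraries had 0.391%, 1.28% and 0.455% of OR reads on the members, and their controls 0.265%, 0.331% and 0.348%. Every CPD library was thus above every control, but the size of the mean, 0.709 ± 0.497% (SD, n = 3), rested on the library labelled CPD replicate 2. Its share of 1.28% (95% Wilson interval 1.23% to 1.34%) was the highest of all 51 libraries, and without it the mean was 0.423%. For comparison, the 42 libraries outside the MTMT and CPD odor groups had 0.183% to 0.396% (median 0.304%), and the 21 controls among them 0.225% to 0.380%.

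Ordered by mean summed share, 10 mM MTMT, CPD and 100 μM MTMT (0.740%, 0.709% and 0.492%) came first. Neighbours within these 3 differed by less than the larger of their SDs. The 14 other groups followed without a gap, from 0.344 ± 0.0365% (SD, n = 3) in the controls of 10 mM MTMT down to 0.222 ± 0.0566% (SD, n = 3) after β-caryophyllene, and each neighbour in that order differed by less than the larger of the 2 SDs. Between 100 μM MTMT and the next group the step of the means was larger than either SD. Since MTMT reads chose the members, that step and the high place of both MTMT groups describe the choice. The order does not compare the doses, which had separate controls.

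**Figure D2:**
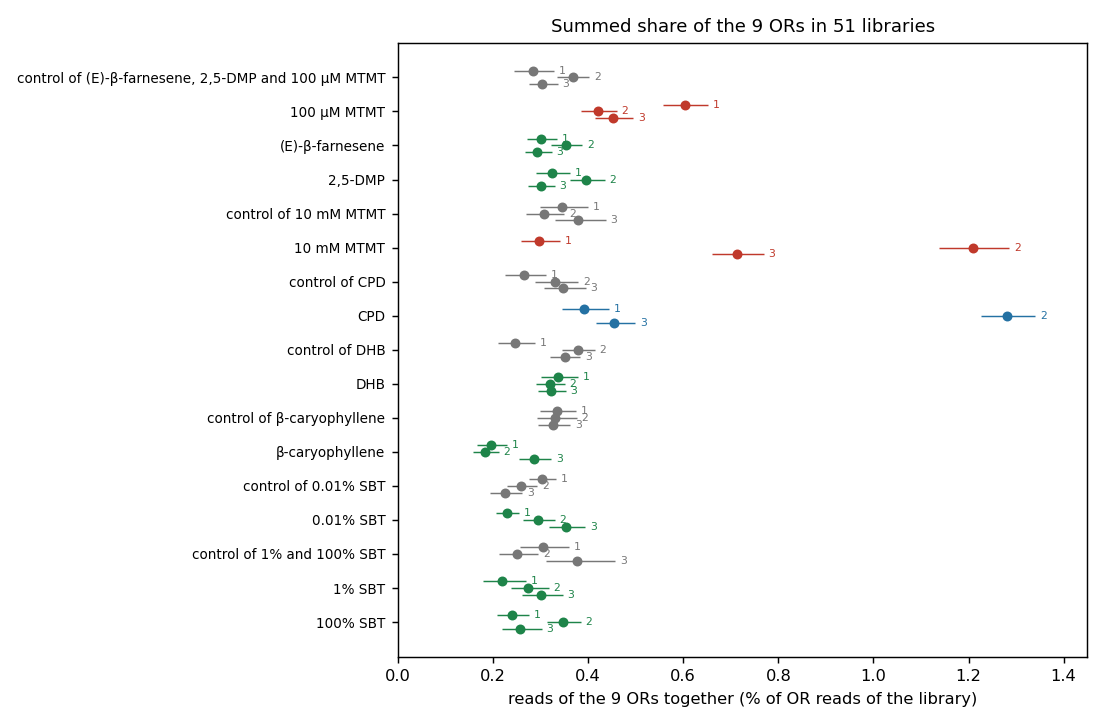
Reads of the 9 ORs together as a percent of all OR reads (x axis) in each of 51 libraries, by group (y axis), with grey for controls, red for MTMT, blue for CPD and green for other odors. Numbers are replicates and bars 95% Wilson intervals; the libraries labelled 10 mM MTMT replicate 2 (1.21%) and CPD replicate 2 (1.28%) lie farthest right, and 10 mM MTMT replicate 1 (0.296%) lies among the controls.

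How the members compare in mice given diluent was read from the 21 controls, as pS6-IP reads per kilobase of exon and per 100000 OR reads. *Olfr1184* had the highest level on this per-length scale, 15.3 ± 4.84 (SD, n = 21), followed by *Olfr1206* at 13.9 ± 4.65 (SD, n = 21) and *Olfr1195* at 9.89 ± 6.97 (SD, n = 21). The next in order were *Olfr1209* (7.73), *Olfr1218* (7.01), *Olfr1199* (6.86), *Olfr1183* (6.70) and *Olfr1220* (6.08), and *Olfr1202* was lowest with 5.55 ± 3.12 (SD, n = 21). Each neighbour in this order differed by less than an SD. By share of OR reads without length, the members ranked 461 (*Olfr1183*) to 803 (*Olfr1202*) of 1117 ORs, so all had middling to low shares in these pS6-IP libraries.

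Values per library after MTMT and CPD are given next, starting with the MOR230 members. *Olfr1209* took 0.0973%, 0.0867% and 0.0741% of OR reads after 100 μM MTMT, against 0.0304%, 0.0480% and 0.0316% in controls. After 10 mM MTMT it took 0.0438% in the library labelled replicate 1, 0.202% and 0.154%, against 0.0504%, 0.0382% and 0.0596%. In CPD libraries its shares were 0.0462%, 0.240% and 0.0508%, and in their controls 0.0586%, 0.0696% and 0.0609%. *Olfr1209* was thus separate from controls in all 3 libraries at 100 μM and in replicates 2 and 3 at 10 mM, while after CPD the library labelled replicate 2 was above the controls and the other 2 were below them.

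*Olfr1199*, its closest relative, took 0.0334%, 0.0447% and 0.0357% after 100 μM MTMT, against 0.0144%, 0.0256% and 0.0122% in controls. At 10 mM the shares were 0.0175% in the library labelled replicate 1, 0.106% and 0.0703%, with 0.0310%, 0.0268% and 0.0139% in controls. CPD libraries had 0.0429%, 0.122% and 0.0567%, and their controls 0.0359%, 0.0174% and 0.0348%. All 3 CPD libraries were above the highest value of the 42 libraries outside the MTMT and CPD groups, which was 0.0359%.

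*Olfr1195* varied most among the shared controls of 100 μM MTMT, at 0.0847%, 0.0616% and 0.0162%, and the odor libraries had 0.0935%, 0.0143% and 0.0274%. These groups overlapped. After 10 mM MTMT the shares were 0.0146%, 0.113% and 0.0615%, against 0.0213%, 0.0170% and 0.0179%. CPD libraries had 0.0495%, 0.166% and 0.0391%, all above their controls at 0.0208%, 0.0174% and 0.0290%.

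*Olfr1206* took 0.0801%, 0.0438% and 0.0412% after 100 μM MTMT, against 0.0160%, 0.0464% and 0.0535% in controls, with overlap. After 10 mM MTMT it took 0.0497%, 0.262% and 0.102%, with 0.0756%, 0.0396% and 0.0616% in controls. In CPD libraries its shares were 0.0594%, 0.269% and 0.0792%, against 0.0340%, 0.0791% and 0.0522%. The values in the libraries labelled replicate 2 of 10 mM MTMT and of CPD were the 2 highest of any member in the 51 libraries.

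*Olfr1183*, the member at the left end of the stretch, had 0.0849%, 0.0742% and 0.0805% after 100 μM MTMT, all above the controls at 0.0208%, 0.0368% and 0.0729%. At 10 mM it had 0.0438%, 0.218% and 0.0725%, and only replicate 2 was above the controls (0.0310%, 0.0890% and 0.0835%). CPD libraries had 0.0577%, 0.160% and 0.0743%, and their controls 0.0302%, 0.0586% and 0.0565%.

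Of the 2 members at the right end, *Olfr1220* took 0.0525%, 0.0349% and 0.0448% after 100 μM MTMT, against 0.0208%, 0.0360% and 0.0340%. At 10 mM its shares were 0.0321%, 0.115% and 0.0736%, above the controls (0.00581%, 0.0141% and 0.0219%) in every library, the library labelled replicate 1 included. CPD libraries had 0.0264%, 0.125% and 0.0537%, again all above their controls at 0.0246%, 0.0222% and 0.0188%. *Olfr1220* was the member that was separate from controls after both 10 mM MTMT and CPD.

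*Olfr1218* took 0.0248%, 0.0286% and 0.0457% after 100 μM MTMT and 0.0480%, 0.0384% and 0.0178% in controls, so the groups overlapped. At 10 mM it had 0.0277%, 0.114% and 0.114%, against 0.0349%, 0.0297% and 0.0199%. CPD libraries had 0.0528%, 0.0864% and 0.0235%, and controls 0.0246%, 0.0158% and 0.0261%. Values above the controls were thus those of replicates 2 and 3 at 10 mM, and those of replicates 1 and 2 after CPD.

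*Olfr1202* had 0.0592%, 0.0349% and 0.0412% after 100 μM MTMT, against 0.0112%, 0.0304% and 0.0251% in controls. At 10 mM it had 0.0190%, 0.0505% and 0.0319%, within the range of the controls (0.0291%, 0.00707% and 0.0517%). CPD libraries had 0.0165%, 0.0576% and 0.0430%, with 0.00189%, 0.0253% and 0.0290% in controls.

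*Olfr1184* was above its controls at 100 μM and not at 10 mM. It had 0.0773%, 0.0581% and 0.0622% after 100 μM, all above the controls at 0.0368%, 0.0440% and 0.0405%. At 10 mM it had 0.0482%, 0.0294% and 0.0330%, and the controls 0.0659%, 0.0452% and 0.0497%. After CPD it had 0.0396%, 0.0555% and 0.0352%, against 0.0340%, 0.0253% and 0.0406%. Its value in the library labelled CPD replicate 2 lay within the range of the 42 other libraries (0.0253% to 0.0875%), whereas the 8 other members were above that range there.

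**Figure D3:**
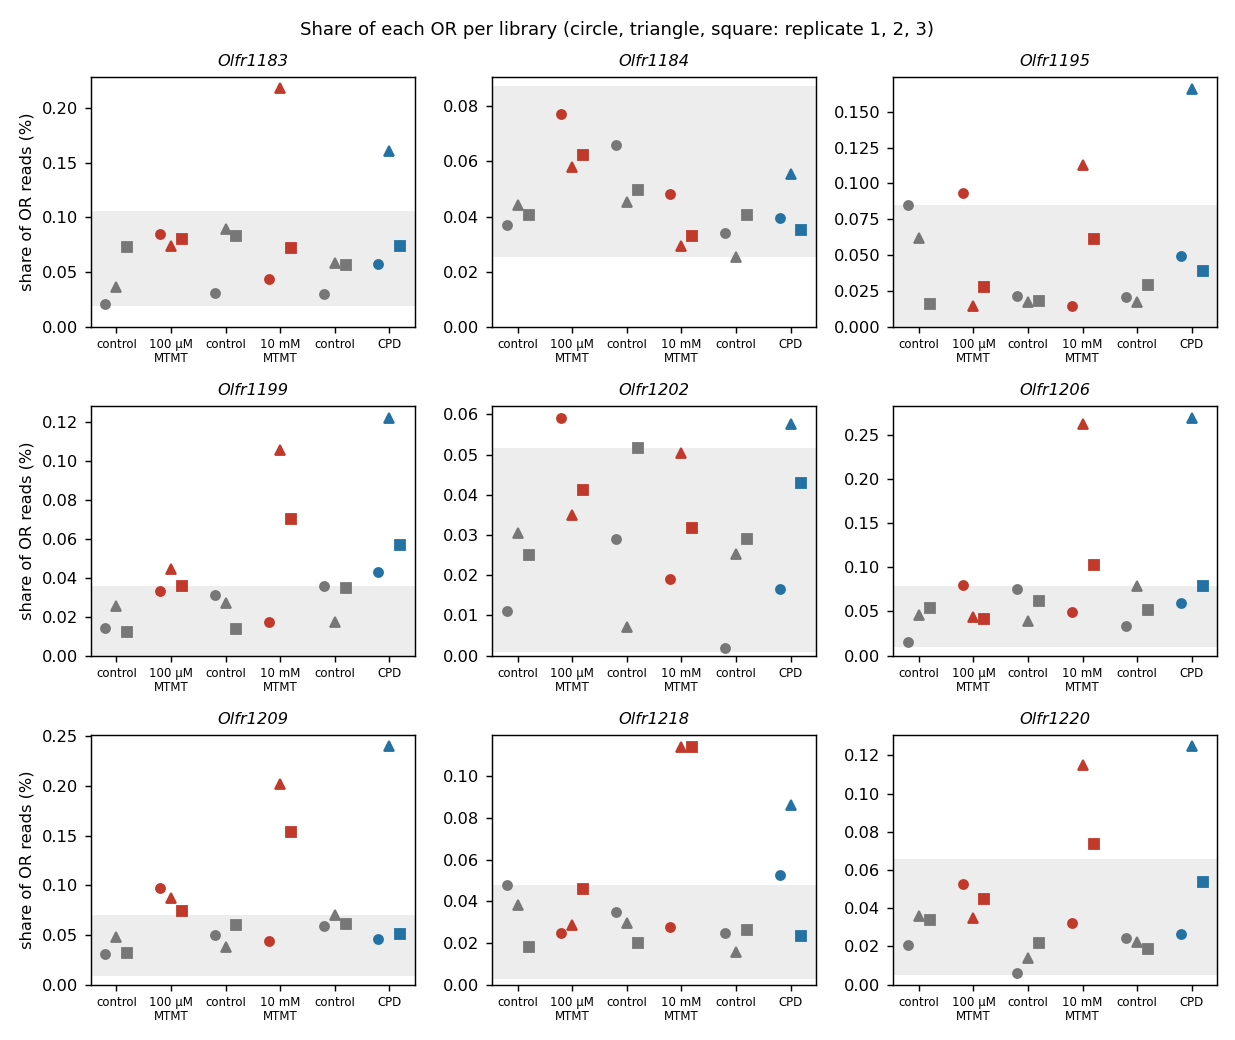
Share of OR reads (%, y axis) of each of the 9 ORs in the 18 libraries of the MTMT and CPD groups (red and blue) and their controls (grey), with circle, triangle and square for replicates 1, 2 and 3. The grey band spans the 42 libraries outside the MTMT and CPD odor groups; 7 members exceed it in 10 mM MTMT replicate 2, 8 in CPD replicate 2 and none in the library labelled 10 mM MTMT replicate 1. The same was not counted over all ORs.

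Counted by library, 4, 2 and 1 members exceeded all 42 libraries outside the MTMT and CPD odor groups in replicates 1, 2 and 3 of 100 μM MTMT. At 10 mM MTMT the counts were 0 in the library labelled replicate 1, 7 in replicate 2 and 5 in replicate 3. For CPD they were 2, 8 and 2. *Olfr1209* was the member above the range in all 3 libraries at 100 μM, and *Olfr1199* in all 3 after CPD. How many of all ORs exceeded the same 42 libraries was not counted, so these counts have no background beside them. Since MTMT reads chose the members, the counts in the MTMT groups describe the choice.

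All 3 odor libraries were above all 3 control libraries for 5 of 9 members after 100 μM MTMT (*Olfr1183*, *Olfr1184*, *Olfr1199*, *Olfr1202* and *Olfr1209*), where the same held for 4.87% of 1068 ORs. After 10 mM MTMT it held for 1 member (*Olfr1220*) and 0.759% of 1054 ORs, and without the library labelled 10 mM MTMT replicate 1 for 6 members (*Olfr1195*, *Olfr1199*, *Olfr1206*, *Olfr1209*, *Olfr1218* and *Olfr1220*) and 4.65% of ORs. Since MTMT reads chose the members, these counts describe the choice. For CPD it held for 3 members (*Olfr1195*, *Olfr1199* and *Olfr1220*) and 2.19% of 1050 ORs, and without the library labelled CPD replicate 2 for the same 3 members and 6.29% of ORs. The counts without these libraries were added after the data had been seen.

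On the fitted scale, log2 fold changes of the members after 100 μM MTMT ran from -0.29 (*Olfr1195*) to 1.19 (*Olfr1209*), with a median of 0.67 and 7 of 9 above 0. After 10 mM MTMT they ran from -0.24 (*Olfr1184*) to 2.79 (*Olfr1220*), with a median of 1.82 and 8 of 9 above 0. Without the library labelled 10 mM MTMT replicate 1 the median at 10 mM was 2.30, with *Olfr1184* at -0.33 and *Olfr1220* at 3.19 as lowest and highest. Over all ORs tested the median log2 fold change was -0.01 at 100 μM and 0.03 at 10 mM. An adjusted p under 0.05 by edgeR's quasi-likelihood test was reached by 0.281% of ORs (3 of 1068) at 100 μM and by 0% of 1054 ORs at 10 mM. Without the library labelled 10 mM MTMT replicate 1 the same test called 37 ORs higher and 1 lower (3.64% of 1043). At 10 mM with all libraries, 69 ORs had an unadjusted p under 0.05, and DESeq2 called 15, the likelihood ratio test 5 and the fit of all 51 libraries 27 higher and 2 lower. Whether a member was among the ORs called at either dose is not given, since the members were chosen on MTMT.

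Outside MTMT the members had their highest median log2 fold change after CPD, between those of both MTMT doses, and were tested there. They were selected on MTMT with earlier results of these data known, so their independence from the CPD values is not certain. The log2 fold changes were 2.14 (*Olfr1195*, standard error 0.61), 1.88 (*Olfr1220*, 0.57), 1.54 (*Olfr1199*, 0.50), 1.53 (*Olfr1206*, 0.59) and 1.48 (*Olfr1218*, 0.53). *Olfr1202* (1.20, standard error 0.69), *Olfr1183* (1.19, 0.48), *Olfr1209* (1.09, 0.61) and *Olfr1184* (0.54, 0.40) followed. The median was 1.48, against -0.02 over all ORs tested. No member was called by the quasi-likelihood test of edgeR, adjusted over 1050 ORs by Benjamini-Hochberg (adjusted p = 0.993 for each), and neither was any other OR (0%). Unadjusted, 40 ORs had p under 0.05, 6 of them members. DESeq2, the likelihood ratio test and the fit of all 51 libraries called 1 OR each, none a member.

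The size of these values rested on the library labelled CPD replicate 2. Without it the median of the members was 0.66, 8 of 9 were above 0, none had an unadjusted p under 0.05, and edgeR called 0.0961% of 1041 ORs and no member. *Olfr1195* (0.98, standard error 0.50) and *Olfr1220* (0.93, standard error 0.52) were then highest, and *Olfr1209* was at -0.35 (standard error 0.40). Adjusted p in this fit by edgeR was 0.999 for every member. With the prefix of the sample titles as a block, which sets replicate 3 of CPD and its control apart from replicates 1 and 2, the median was 1.33, and with a block for replicate numbers 1.27. In that replicate 3 pair alone the summed shares were 0.455% and 0.348%.

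**Figure D4:**
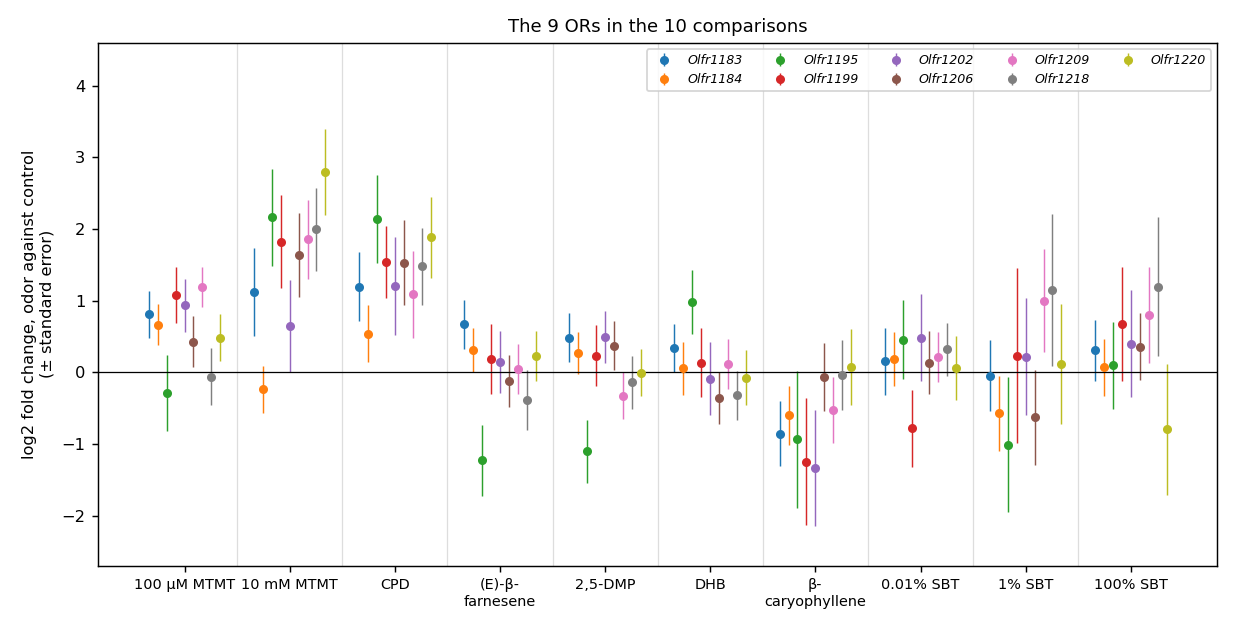
Log2 fold change of odor against control (y axis, points, with standard errors as bars) for each of the 9 ORs (colour) in 10 comparisons (x axis). The members lie mostly above 0 after both MTMT doses, on which they were chosen, and after CPD, and around 0 elsewhere, with 8 of 9 below 0 after β-caryophyllene.

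In the 5 remaining comparisons that share no control library with MTMT (DHB, β-caryophyllene and the 3 doses of SBT) no member was called, and 1 of 45 values of a member in a comparison had an unadjusted p under 0.05. (*E*)-β-farnesene and 2,5-DMP share their control libraries with 100 μM MTMT, on which the members were chosen, so their values are not independent of that choice and are given as a description, with no member called. The share of ORs called by the same test was 1.77% after (*E*)-β-farnesene, 0.841% after 2,5-DMP, 0.564% after DHB, 0% after β-caryophyllene, 0.466% after 0.01% SBT, 0.863% after 1% SBT and 11.3% after 100% SBT. Over CPD and these 5 comparisons the smallest adjusted p of a member was 0.558 (*Olfr1218* after 100% SBT, edgeR's quasi-likelihood test). DESeq2 and the likelihood ratio test called no member in them either.

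In DHB the log2 fold change of *Olfr1195* was 0.98 (standard error 0.45, edgeR adjusted p = 0.993), the value with an unadjusted p under 0.05. Against the controls shared with 100 μM MTMT it was at -1.23 (standard error 0.50) after (*E*)-β-farnesene and -1.10 (standard error 0.44) after 2,5-DMP. Without control replicate 3, the shared control with the lowest share (0.0162%), it was at -1.70 and -1.60 and passed the threshold in both. Over all ORs, these fits called 14 higher and 1 lower of 1067 after (*E*)-β-farnesene, and 8 higher and 1 lower of 1066 after 2,5-DMP. The shares of *Olfr1195* in the other 2 shared controls were 0.0847% and 0.0616%.

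After β-caryophyllene, 8 of 9 members had a negative log2 fold change (median -0.60, from -1.34 for *Olfr1202* to 0.07 for *Olfr1220*), against a median of 0.02 over all 1048 ORs. Their summed shares, 0.195%, 0.183% and 0.287%, were each below all 3 controls (0.335%, 0.331% and 0.326%). No member and no other OR passed the threshold by edgeR's quasi-likelihood test, 51 ORs and no member had an unadjusted p under 0.05, and DESeq2 and the likelihood ratio test called 0.

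Medians of the members were 0.14 after (*E*)-β-farnesene, 0.23 after 2,5-DMP and 0.05 after DHB. They were 0.19, 0.12 and 0.36 after 0.01%, 1% and 100% SBT. SBT is a dihydrothiazole of male urine and contains sulfur as MTMT does. At 100% SBT, where 111 ORs were called higher and 8 lower (84 and 39 when scaled to library totals instead of by TMM), the members ranged from -0.80 (*Olfr1220*, standard error 0.91) to 1.19 (*Olfr1218*, standard error 0.97), and their lowest adjusted p was 0.558 by edgeR. Scaled to library totals, their median at this dose was -0.04, and that of all ORs moved from -0.08 to -0.46.

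The 20 other ORs of the stretch were set beside the members. Their median log2 fold change was 0.13 after 100 μM MTMT, 0.09 after 10 mM MTMT and 0.19 after CPD, against 0.67, 1.82 and 1.48 for the members. Without the library labelled 10 mM MTMT replicate 1 it was 0.26, against 2.30 for the members, and without the library labelled CPD replicate 2 it was 0.10, against 0.66. Values reached 0.86 (*Olfr1204*) at 100 μM, 0.98 (*Olfr1193*) at 10 mM and 0.62 (*Olfr1204*) after CPD, and the lowest was -2.40 (*Olfr1188*) at 10 mM. Every odor library was above every control for 3 of the 20 at 100 μM, 1 at 10 mM and 0 after CPD. The same held for 4.87%, 0.759% and 2.19% of all ORs tested. These 20 are what the choice of the members left over, so the gap in medians is a description. Their summed share was 1.98 ± 0.0756% (SD, n = 3) after 100 μM MTMT against 1.80 ± 0.114% (SD, n = 3) in controls. At 10 mM it was 1.60 ± 0.0818% (SD, n = 3) against 1.82 ± 0.0968% (SD, n = 3), with every odor library below every control. Single ORs lay wholly below their controls more often than above them at this dose, 142 against 8 of 1054. In replicate 3 *Olfr541* and *Olfr1437* took 9.79% and 6.29% of OR reads. In replicates 1 and 2 *Olfr541* took 0.257% and 0.124%, and *Olfr1437* 0.511% and 0.0740%. The 20 ORs took 1.54% and 1.69% in replicates 1 and 2. Why they lay below their controls at 10 mM was not tested. The summed share of the 20 ORs was 1.97 ± 0.172% (SD, n = 3) after CPD against 1.97 ± 0.149% (SD, n = 3). In the library labelled CPD replicate 2, which had the highest share of the members, the neighbours had 1.85%, below the 1.89% and 2.16% of the other CPD libraries.

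Closest relatives are set side by side next. *Olfr1205*, which shares 92.8% of residues with *Olfr1206*, had log2 fold changes of 0.25, 0.37 and 0.27 after 100 μM MTMT, 10 mM MTMT and CPD, where *Olfr1206* had 0.43, 1.64 and 1.53. The gap after CPD rested on the library labelled CPD replicate 2, without which *Olfr1205* was at 0.53 and *Olfr1206* at 0.35. At 10 mM the values were 0.60 and 2.08 without the library labelled replicate 1, and 0.21 and 0.73 without replicate 2. *Olfr1201*, which shares the same 92.8% with *Olfr1206*, had -0.66, -1.65 (standard error 0.92) and 0.41. It was at -1.20 at 10 mM without replicate 1, -1.51 without replicate 2, and 0.45 after CPD without replicate 2. *Olfr1204* had 0.86, 0.30 and 0.62, and its relative *Olfr1202* 0.93, 0.64 and 1.20, or 0.16 and 0.66 after CPD without replicate 2, and 0.82 and 0.99 at 10 mM without replicate 1. *Olfr1216* had 0.14, -0.58 and 0.22, and its relative *Olfr1218* -0.06, 2.00 and 1.48. For this pair the values were 0.16 and 0.77 after CPD without replicate 2, and -0.73 and 2.45 at 10 mM without replicate 1. *Olfr1201* and *Olfr1205* carry a MOR230 name, as do *Olfr1186* and *Olfr1193*. *Olfr1186* had 0.18, -0.32 and 0.19, with -0.34 at 10 mM without replicate 1 and -0.08 after CPD without replicate 2. *Olfr1193*, which also carries MOR226-1, was 53.2% to 57.9% identical to the MOR230 members. It had 0.20, 0.98 and 0.29, with 1.23 at 10 mM without replicate 1 and -0.25 after CPD without replicate 2. In the 10 mM fit without replicate 1 it was called (edgeR adjusted p = 0.0348), where 3.64% of 1043 ORs were called. In the tested comparisons, 2 neighbours were called, both higher after 100% SBT: *Olfr1189* (log2 fold change 1.66, standard error 0.37, edgeR adjusted p = 0.00754) and *Olfr1193* (1.37, standard error 0.33, edgeR adjusted p = 0.0122). At that dose 19 of the 20 neighbours were tested, and 11.3% of 1050 ORs were called, so this count is near the share over all ORs.

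**Figure D5:**
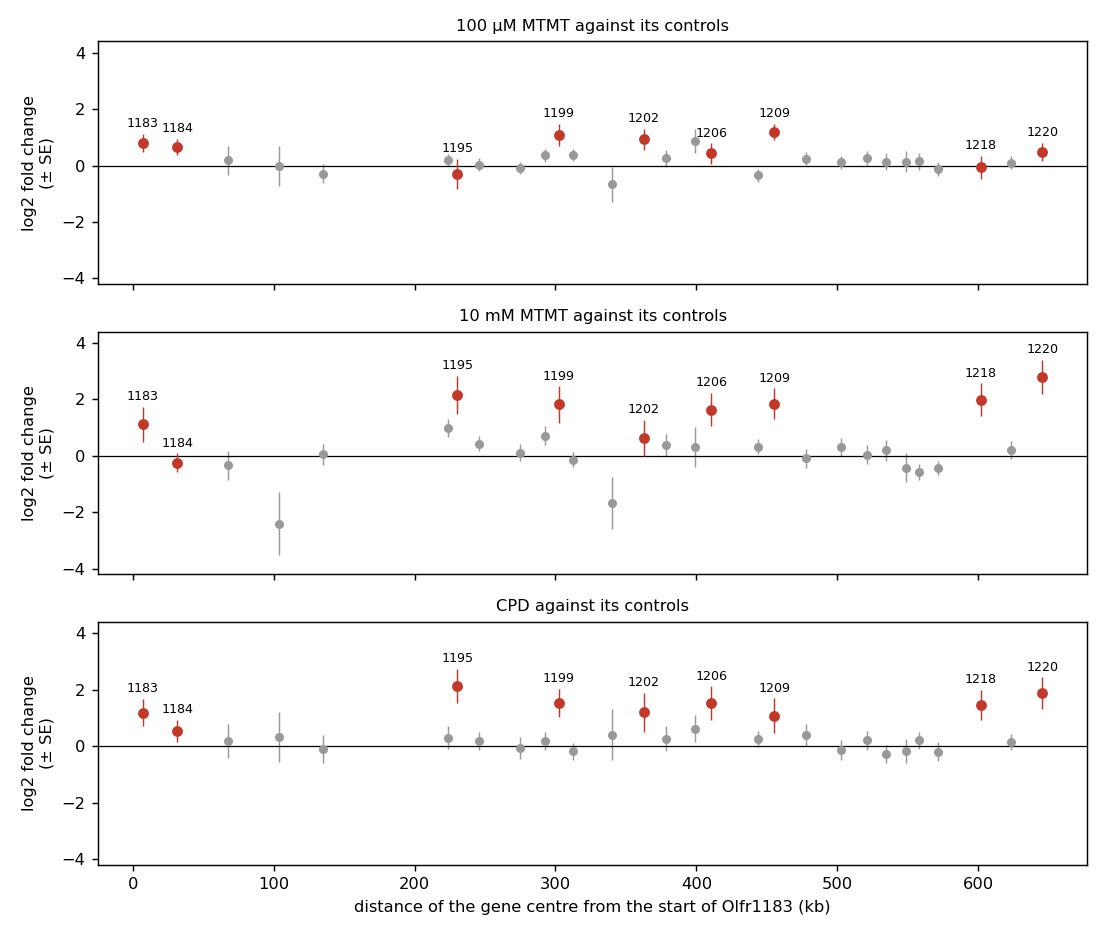
Log2 fold change (y axis, with standard errors) of the 29 ORs of the stretch against the distance of their gene centre from the start of *Olfr1183* (x axis, kb), for 100 μM MTMT, 10 mM MTMT and CPD. The 9 members, chosen on MTMT, are red and carry their number. The 20 other ORs are grey, with medians of 0.13, 0.09 and 0.19 and values from -2.40 to 0.98, both at 10 mM MTMT.

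Over the 51 libraries, log2 shares of 2 members correlated with a median Pearson r of 0.41 (from -0.23 to 0.65 over 36 pairs). Over the 42 libraries outside the MTMT and CPD odor groups the median was 0.12 (from -0.30 to 0.45). Libraries share controls and depth, and counts are low, so these values are a description. The 5 other ORs whose shares followed the members' mean standardised value most closely were *Olfr1257* (r = 0.82), *Olfr329* (0.82), *Olfr224* (0.81), *Olfr328* (0.80) and *Olfr314* (0.78), among 916 ORs with a median of at least 10 reads. Without the MTMT and CPD odor libraries the r of these 5 was 0.49 to 0.64 over 42 libraries. These r set a single OR against the mean of the members, so they cannot be compared with those between 2 members. None of the 5 is numbered between *Olfr1183* and *Olfr1220*.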

How the data were processed

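Reads were mapped by the authors with STAR to GRCm38.p6 (GENCODE M25) with 1 OR gene model removed, keeping reads with up to 10 places, and assigned to genes with RSEM. The deposited expected counts are whole numbers, not normalized, for 1117 ORs in 51 libraries, and were used as counts after rounding. The deposited tables also hold the authors' log2 fold change, logCPM, likelihood ratio, p-value and FDR of each comparison, which were not used. A table of another odorant has 6 columns of libraries that the labels do not name, and these were left out. Members and lists were chosen with earlier results of these data known.

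Shares are reads of an OR over all OR reads of the library, with Wilson intervals at 95% (scipy 1.17.1). Each odor group was compared with its own controls by edgeR 4.0.16 in R 4.3.3 on every OR with 10 or more reads in the 6 libraries together, using TMM factors over ORs, glmQLFit and glmQLFTest. P-values were adjusted by Benjamini-Hochberg across tested ORs, and an OR was called below 0.05. The standard error is the log2 fold change over the square root of F. An exact permutation test of 3 libraries against 3 cannot go below p = 0.1, and none is reported. The test was checked on counts drawn with each comparison's depth and spread. It recovered 62.8% (1% SBT) to 94.8% (2,5-DMP) of the ORs given a change, with 77.7% for 100% SBT and 88.3% for CPD. Wrong calls made up 1.92% (β-caryophyllene) to 5.26% (10 mM MTMT) of calls. For CPD, 197 of 1036 ORs were given a change in this check, while the CPD comparison itself called 0%. The recovered percentages therefore do not give the power of the tests on the deposited counts. The methods describe 1 mouse per sample, but the labels give replicates only a number, so p-values measure the spread between these libraries, which may be technical. Same-numbered odor and control libraries deviated together (r over 0.1 for all 3 numbers) in CPD, 2,5-DMP, DHB, β-caryophyllene, 1% SBT and 100% SBT, with r from 0.053 to 0.318 over all comparisons.

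Named were the 9 members, other ORs numbered *Olfr1183* to *Olfr1220* where called or beyond the members' values, *Olfr1295*, *Olfr1437* and *Olfr235* as a check of the labels, and the 5 ORs most like the members over 51 libraries by Pearson correlation of log2(reads per 100000 OR reads + 5). *Olfr541* and the closest relatives of members are outside this rule and were chosen with their values known. Positions, exons and coding sequences came from GENCODE M21 and the GRCm38.p6 genome read with samtools 1.23.1. Proteins were aligned globally with Biopython 1.88 (BLOSUM62). Synonyms are from RefSeq. Alternatives were the replicate block, DESeq2 1.42.0, scaling to library totals alone, a filter of 1 read, filterByExpr, the likelihood ratio test, a single fit of all 51 libraries, the prefix of the sample titles as a block, and each library left out.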

Additional observations from a re-analysis of the deposited data

How the results depend on the processing

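No member was called in any of the 8 comparisons outside MTMT with the replicate block, DESeq2, library totals, no filter beyond 1 read, filterByExpr, the likelihood ratio test, the fit of all 51 libraries or the title prefix as a block. Leaving out single libraries gave 0 to 1 members called after (*E*)-β-farnesene and 0 to 1 after 2,5-DMP, in both cases *Olfr1195* without control replicate 3, and 0 in the 6 others. Without that control, 14 ORs were called higher and 1 lower of 1067, and 8 higher and 1 lower of 1066. With the replicate block, 0 members were called after CPD, and the paired fits changed no other call of a member. The median log2 fold change of the members stayed between 0.66 and 1.75 after CPD, 1.25 and 2.30 after 10 mM MTMT and 0.55 and 0.73 after 100 μM MTMT with single libraries left out, and between 1.27 and 1.49, 1.43 and 1.85, and 0.65 and 0.69 under the other settings. *Olfr1209* after CPD turned from 1.09 to -0.35 without CPD replicate 2, and was at up to 1.48 with other single libraries left out. The mean summed share ranged from 0.423% to 0.869% for CPD, 0.505% to 0.961% for 10 mM MTMT and 0.436% to 0.528% for 100 μM MTMT with single libraries left out. The most abundant OR left out of the total, or TMM-scaled totals, gave 0.728% to 0.784%, 0.779% to 0.894% and 0.469% to 0.505%. With 91 to 1870 reads of the members per library, a change of a single OR below the spread of 3 libraries was not detectable at this depth. Over all ORs, 10 mM MTMT had 0 ORs called by the main test, 15 by DESeq2, 5 by the likelihood ratio test and 27 higher and 2 lower in the fit of all 51 libraries. Without 10 mM MTMT replicate 1 the main test called 37 higher and 1 lower, and 0 with any other single library left out. CPD had 0 and 1 by each of the others, and 100 μM MTMT 3, 5, 7 and 0. With library totals, the median of all ORs moved from 0.03 to -0.28 at 10 mM MTMT and from -0.02 to -0.13 after CPD, and 100% SBT had 84 ORs called higher and 39 lower in place of 111 and 8.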
